A study of Mus musculus with 9 samples.

Results

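The nuclear-encoded subunits of oxidative phosphorylation were followed in mouse CD8+ T cells, the lymphocytes that kill infected and tumour cells. The members were chosen by gene symbol, with earlier results of these data known. Taken were the Nduf subunit genes numbered in the a, b, c, s or v group, Sdha to Sdhd and the Uqcr genes. Cyc1, the Cox4 to Cox8 genes and the Atp5 genes were taken too. Pseudogenes marked "-ps" were left out. This gave 86 of the 20618 genes measured: 39 of complex I, 4 of complex II, 9 of complex III, 17 of complex IV and 17 of complex V. Ndufa4 and Ndufa4l2 were counted with complex IV, where the Ndufa4 protein sits. The genes lie on 19 chromosomes. All cells were wild type and were kept for 24 h in medium with 10% dialyzed FBS, from which small nutrients have been removed, before live cells were sorted and RNA was sequenced in pairs of reads. Inosine at 2 mM combined with hypoxanthine, inosine at 2 mM alone or glucose at 2 mM was given, each in 3 of the 9 libraries. The hypoxanthine dose is not given here because its unit is incomplete in the labels. The sources used here do not state the strain, sex or age of the mice, or whether replicates were separate mice or separate wells. The p-values therefore set each difference between media only against the spread of these replicates, which may be technical.

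Oxidative phosphorylation runs in the inner mitochondrial membrane. Complex I takes electrons from NADH and complex II takes them from succinate. Both pass them to ubiquinone, complex III moves them on to cytochrome c, and complex IV gives them to oxygen. Complexes I, III and IV pump protons, and complex V, the ATP synthase, lets the protons back through its ring of c subunits while its F1 head makes ATP. Complex II is built from nuclear genes alone, while the other complexes combine nuclear subunits with 13 proteins encoded by mitochondrial DNA. T cells draw on this machinery when they leave rest and as memory cells. Inosine is hypoxanthine joined to ribose, and T cells can use its ribose as a carbon source when glucose is scarce.

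Reads recovered from the deposited group means came to between 30552193 and 49635629 per library. The cells carried the T cell markers: the summed level of Cd3d, Cd3e, Cd3g, Cd8a, Cd8b1, Cd2 and Lck was 1317 to 1395 FPKM (fragments scaled to transcript length and library size) with hypoxanthine, 815 to 1041 in inosine and 884 to 953 in glucose. Markers of other blood cells were low in every library, with sums of at most 0.0720 FPKM for 2 CD4 T cell genes, 1.83 for 4 B cell genes, 0.577 for 5 myeloid genes, 0.241 for 2 NK cell genes and 0.285 for 3 erythroid genes. No list had a defining marker at 0 in every library. Of the 7 T cell markers, 5 rose and 1 fell with hypoxanthine against inosine. By the same test, described below, 11.7% of all genes rose and 9.59% fell. Among genes averaging 10 FPKM or more, 12.7% rose and 22.3% fell. These marker genes thus moved in the comparison described below. The part of this shift in the values of the oxidative phosphorylation genes was not tested.

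Almost all members were expressed. Of the 86 genes, 78 averaged 10 FPKM or more over the 9 libraries and 81 averaged 1 FPKM or more. The median member mean was 101 FPKM, against 0.753 FPKM over all genes. By complex, the median level was 77.3 FPKM for complex I, 80.2 for complex II, 99.6 for complex III, 196 for complex IV and 237 for complex V. The highest mean of all members was that of Atp5b, the catalytic beta subunit of the F1 head, at 688 FPKM, followed by Atp5g3, a c-ring gene, at 375 FPKM. Together the 86 genes took 2.52, 2.65 and 2.54% of the summed FPKM with hypoxanthine, 2.77, 3.01 and 2.71% in inosine and 2.95, 2.95 and 2.92% in glucose. The 3 libraries with hypoxanthine lay below all 6 others on this share.

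**Figure D1:**
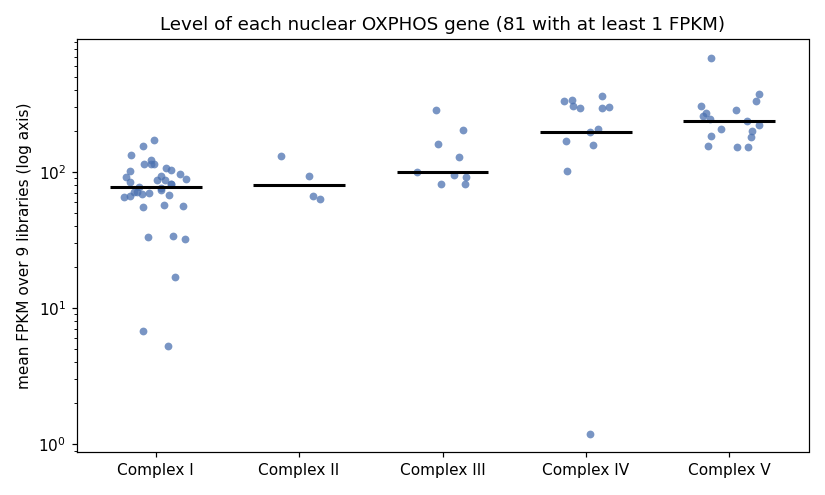
Mean FPKM over 9 libraries (log axis) of the 81 members with at least 1 FPKM, by complex; points are genes and the line is the median over all members of the complex. Complexes IV and V sit highest, with medians of 196 and 237 FPKM, against 77.3 FPKM for complex I.

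The 5 genes under 1 FPKM were Ndufs6b, Cox4i2, Cox6a2, Cox7a1 and Ndufa4l2, and Cox6b2 stood just above at 1.20 FPKM. All but Ndufs6b are forms tied to one tissue or to low oxygen, and each has a partner gene expressed widely. Cox6a2 and Cox7a1 are the heart and muscle forms of their subunits, and Cox6b2 is the testis form. Their partners were far higher: Cox6a1 averaged 269.8 ± 10.8 FPKM with hypoxanthine, 297 ± 21.8 in inosine and 325 ± 15.6 in glucose (SD, n = 3 each), while Cox6a2 averaged 0.166 ± 0.0244 FPKM with hypoxanthine, 0.245 ± 0.0830 in inosine and 0.252 ± 0.0905 in glucose. Cox4i2, the form induced by low oxygen in lung, was listed at 0 in 5 of the 9 libraries and reached at most 0.0595 FPKM, against 300.1 to 387 FPKM for Cox4i1. Ndufa4l2, another gene known for its response to low oxygen, was listed at 0 in 6 of the 9 libraries. None of these 6 genes passed the test in any comparison. Ndufs6b differs little in sequence from Ndufs6, and Ndufb4b and Ndufb4c from Ndufb4, so their reads could have been divided between copies.

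The members that moved are shown first by the DNA just before their start. RefSeq starts (GRCm38.p6, the build also called mm10) were found for 68 of the 86 members, with 73 windows of 250 bases. For 4 members that passed the test described below, the last 120 bases before the start are printed, 5′ to 3′ along the gene's strand. They are the member that rose, the member with the largest fall and 2 subunits of complex II, all of whose genes were lower. Capitals mark matches to the letters of NRF1 (GCGCANGCG), a factor known for binding promoters of respiratory chain genes, and of the ETS family (CCGGAAG), to which the respiratory factor GABP belongs.
Cox7a2l (chr17:83514334-83514453, minus strand): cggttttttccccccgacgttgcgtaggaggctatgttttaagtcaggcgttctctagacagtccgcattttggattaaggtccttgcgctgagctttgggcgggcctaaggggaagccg
Atp5pb (chr3:105959264-105959383, minus strand): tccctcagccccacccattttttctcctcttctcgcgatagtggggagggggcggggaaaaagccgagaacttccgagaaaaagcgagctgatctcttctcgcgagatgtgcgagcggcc
Sdhd (chr9:50603850-50603969, minus strand): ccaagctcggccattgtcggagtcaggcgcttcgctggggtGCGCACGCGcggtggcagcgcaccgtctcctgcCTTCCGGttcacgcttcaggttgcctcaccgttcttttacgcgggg
Sdha (chr13:74350241-74350360, minus strand): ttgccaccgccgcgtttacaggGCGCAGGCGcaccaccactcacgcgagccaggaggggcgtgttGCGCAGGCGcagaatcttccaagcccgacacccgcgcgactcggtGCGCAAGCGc
Sdha held 3 NRF1 matches and Sdhd held 1 match of each motif, while Cox7a2l and Atp5pb held none in the 250 bases. On either strand, the NRF1 letters were found in 20.5% of the member windows, against 14.1% of 5079 windows of genes averaging 10 FPKM or more and 5.16% of all 32851 windows. The ETS letters stood in 16.4% of member windows, 18.1% of windows of genes at 10 FPKM or more and 6.91% of all windows. Letters of YY1 (AAGATGGCG), another factor tied to these genes, were found in 1.37%, 1.56% and 0.606% of the same sets. Matches of different motifs were counted separately, whether or not they overlapped. Among members, 2 of 10 windows of genes that passed the test held the NRF1 letters, against 13 of 63 of the others. A match is a run of letters and does not show that a factor binds there.

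Before the comparisons, 2 libraries have to be named. Inosine replicate 2 had 6.50% of its FPKM in the 13 genes of mitochondrial DNA and the library with hypoxanthine numbered 2 had 5.84%, against 4.03 to 4.82% in the other 7. The same 2 libraries were high in the nuclear subunits. In inosine replicate 2, 67 of the 78 members at 10 FPKM or more lay above the mean of the other 2 inosine libraries, with a median log2 deviation of 0.29, against -0.01 over all genes of that level. In replicate 2 with hypoxanthine, 61 of 78 members lay above the other 2, with a median of 0.24, against -0.05 over all genes. Glucose replicate 1 also had 62 of 78 members above the other 2 glucose libraries, by a smaller median of 0.06. In complex II with hypoxanthine, Sdhb, Sdhd and the summed FPKM were highest in replicate 2, while the median deviation of the 4 genes from the 9-library mean was -0.19, -0.24 and -0.20 in the 3 libraries. Counts over all members are therefore also given without the 2 replicate-2 libraries, as are the differences of some single genes. Medians of single complexes are given with all 9 libraries. Without inosine replicate 2, the difference of hypoxanthine from inosine was higher for 73 of the 86 members and lower for 13. In log2, Ndufa12 went from -0.34 to -0.23, Uqcrq from -0.39 to -0.30, Atp5g1 from -0.44 to -0.35 and Sdhb from -0.29 to -0.21. Cyc1 went from -0.39 to -0.47 and Sdhc from -0.17 to -0.24.

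**Figure D2:**
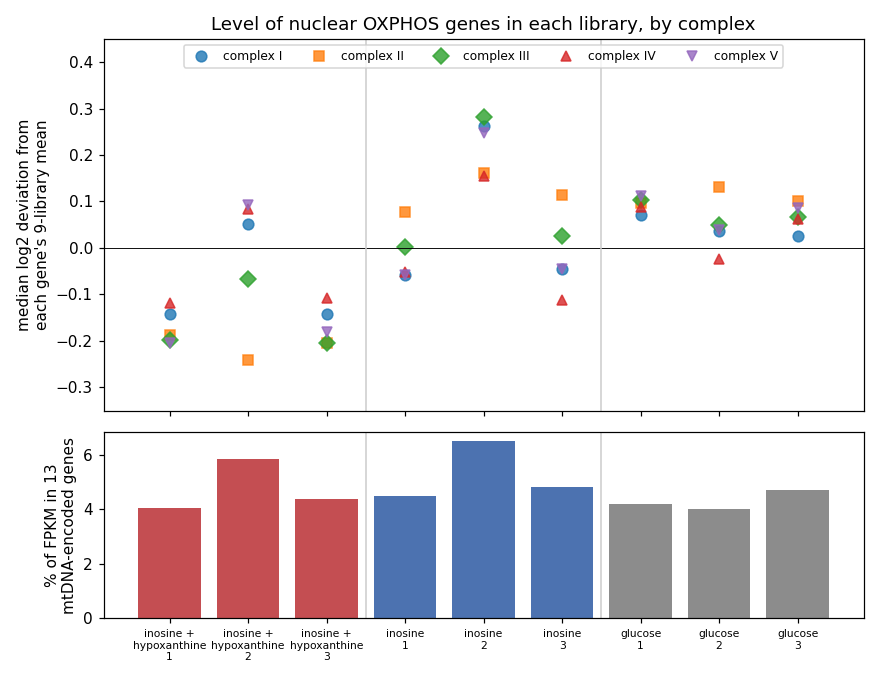
Upper panel: median log2 deviation of the members of each complex from each gene's mean over the 9 libraries, for members with at least 10 FPKM. Lower panel: percentage of FPKM in the 13 genes of mitochondrial DNA; replicate 2 with inosine and hypoxanthine (5.84%) and replicate 2 with inosine (6.50%) stand above the other 7 libraries in the lower panel, and in the upper panel inosine replicate 2 is highest for every complex.

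The first comparison asked what hypoxanthine adds to cells already given inosine. With hypoxanthine, 14 of the 86 members fell, 1 rose and 71 did not pass the test, a limma fit of log2(FPKM + 1) across all genes with Benjamini-Hochberg adjustment and a threshold of 0.05. Among those that fell were Ndufs1, Ndufa10, Ndufa12 and Ndufs3 of complex I, Sdhd and Sdha of complex II, Uqcrfs1, Uqcrq and Cyc1 of complex III, and Atp5pb, Atp5b, Atp5a1 and Atp5g1 of complex V. The largest fall among the members that passed was 35.2%, for Atp5pb, and no subunit of complex IV fell. The member that rose, Cox7a2l, was 59.9% higher with hypoxanthine. In bulk RNA, fewer cells expressing a gene and less RNA of it per cell cannot be told apart.

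Set against all genes, the members had a smaller share of calls in total and a larger share of lower calls. The 15 members made 17.4% of the 86, with 16.3% lower, while 21.3% of all 20618 genes passed the test, 11.7% higher and 9.59% lower. Well-expressed genes passed more often. Among genes averaging 10 FPKM or more, a bound set after the data were seen, 34.9% passed, 12.7% higher and 22.3% lower. Of the 78 members at that level 19.2% passed, with 17.9% lower, so both shares were below those of genes at the same level. The median log2 difference of the members was -0.14, with 71 of 86 below 0, against 0.00 over all genes and -0.06 over genes at 10 FPKM or more. For 18 members all libraries with hypoxanthine lay below all inosine libraries, as for 15.6% of all genes, and for 1 member they lay above, as for 18.7% of all genes. On recovered reads 14 of 82 members tested fell and 1 rose, where 35.9% of genes passed. Without inosine replicate 2, 10 members fell, 4 rose and the median was -0.06, where 20.2% of all genes passed. The 3 further members called higher in that fit were Ndufb1, Atp5e and Atp5j, chosen here after their values were seen, at log2 differences of 0.47, 0.31 and 0.26 (adjusted p = 0.027, 0.032 and 0.047). Without both replicate-2 libraries of high mitochondrial share, 12 fell, 2 rose and the median was -0.09, where 17.3% of all genes passed. Without replicate 3 with hypoxanthine, 7 fell and 1 rose, where 13.4% did.

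**Figure D3:**
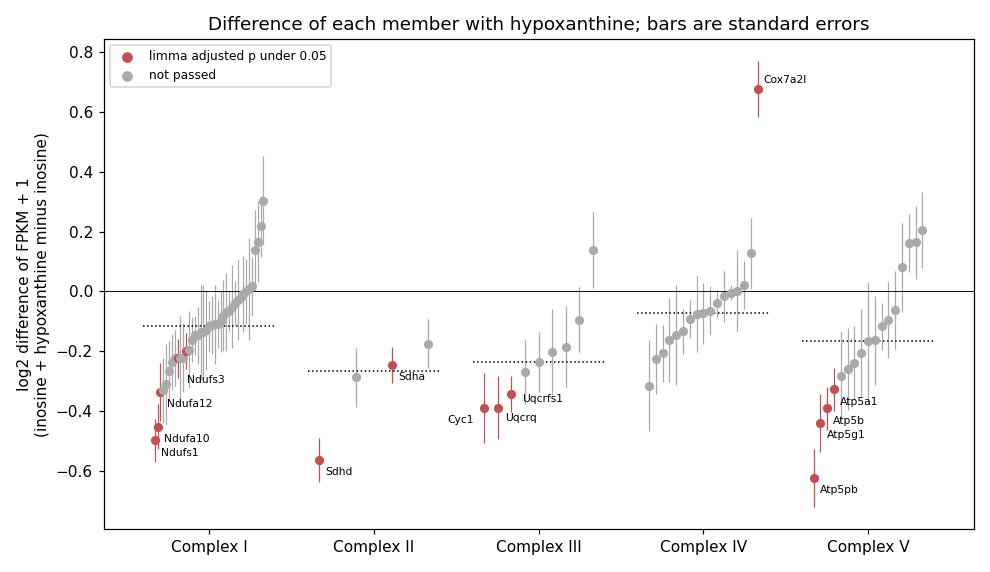
Log2 difference of FPKM + 1, inosine with hypoxanthine minus inosine, for each of the 86 members by complex; bars are standard errors, red points passed limma at an adjusted p under 0.05, and dotted lines are complex medians. Cox7a2l stands alone at 0.68, and the lowest point of the complex V column is Atp5pb at -0.63.

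Complex I has a catalytic core of 7 nuclear subunits, which between them carry the flavin and the iron-sulfur clusters, and accessory subunits around it. Of the 39 complex I genes 5 fell with hypoxanthine, or 12.8%, and the other 34 did not pass. Called lower were 9.59% of all genes and 22.3% of genes at 10 FPKM or more. The genes that fell were 3 of the 7 core subunits and 2 of the 32 accessory subunits. Ndufs1, the largest core subunit and a carrier of iron-sulfur clusters, had 26.4, 28.4 and 26.6 FPKM with hypoxanthine, against 36.0, 40.5 and 39.9 FPKM in inosine. The 3 libraries with hypoxanthine lay below all 3 inosine libraries, at a log2 difference of -0.50 (standard error 0.072, adjusted p = 0.0017). Ndufa10, an accessory subunit of the membrane part, had 62.2, 66.5 and 62.2 FPKM with hypoxanthine, against 79.1, 94.2 and 89.7 FPKM in inosine. The libraries did not overlap, and the log2 difference was -0.45 (adjusted p = 0.0034). Both calls stood when any 1 of the 9 libraries was left out.

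Ndufa12 and Ndufs3 fell too, with adjusted p nearer the threshold. Ndufa12, an accessory subunit, had 58.0, 64.5 and 62.5 FPKM with hypoxanthine, against 71.0, 90.4 and 74.3 FPKM in inosine, a log2 difference of -0.34 (standard error 0.098, adjusted p = 0.039). Ndufs3, a core subunit of the arm that takes part in ubiquinone reduction, had 61.2, 56.7 and 61.0 FPKM with hypoxanthine, against 69.3, 71.4 and 68.7 FPKM in inosine, a log2 difference of -0.22 (standard error 0.066, adjusted p = 0.042). No library with hypoxanthine reached the lowest inosine library in either gene. Their adjusted p nevertheless went past 0.05 in 8 and 7 of the 9 fits that left out 1 library, up to 0.13 for Ndufa12 and 0.11 for Ndufs3. Ndufa12 also went past it in the fit of only the 6 libraries compared (0.083), and Ndufs3 with per-million scaling (0.065).

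Most of complex I did not pass the test. Ndufa3 and Ndufb7, small accessory subunits with the highest levels in the complex, had log2 differences of 0.01 (adjusted p = 1) and -0.15 (adjusted p = 0.34), and of 0.22 and -0.04 without inosine replicate 2. Ndufb1 had the highest difference of the complex that did not pass, 0.30 (adjusted p = 0.2), from 129, 163 and 129 FPKM with hypoxanthine, against 96.1, 141 and 105 FPKM in inosine. Its inosine replicate 2 lay above 2 of the 3 libraries with hypoxanthine, so the media overlapped. The differences of the whole complex ran between -0.50 and 0.30, with a median of -0.12. Ndufa9, an accessory subunit that passed on recovered reads (adjusted p = 0.031) and not on FPKM (0.062), had 70.3, 86.3 and 72.3 FPKM with hypoxanthine, against 85.2, 109.7 and 94.3 FPKM in inosine, with overlapping libraries; it was named after its values were seen.

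All 4 genes of complex II were lower with hypoxanthine, and 2 of them passed the test. Over all genes 9.59% were called lower, and over genes at 10 FPKM or more 22.3%. This complex, also called succinate dehydrogenase, links the citric acid cycle to the electron chain. Sdhd, a membrane anchor, had 71.5, 78.2 and 71.6 FPKM with hypoxanthine, against 100.5, 118 and 110.2 FPKM in inosine. The highest library with hypoxanthine was well below the lowest inosine library, at a log2 difference of -0.56 (standard error 0.074, adjusted p = 0.0012), a fall of 32.7%. Sdha, the flavin subunit that oxidises succinate, had 60.3, 55.7 and 58.5 FPKM with hypoxanthine, against 69.3, 68.1 and 70.1 FPKM in inosine, at a log2 difference of -0.25 (standard error 0.060, adjusted p = 0.019). These libraries did not overlap either. Its adjusted p went to between 0.054 and 0.065 in the 3 fits without inosine replicate 3 and without replicates 2 and 3 with hypoxanthine. With per-million scaling it was 0.061.

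The remaining subunits of complex II overlapped between the media. Sdhb, the iron-sulfur subunit, had 109.8, 127 and 111 FPKM with hypoxanthine, against 125, 158 and 144 FPKM in inosine, with a log2 difference of -0.29 (adjusted p = 0.071), and on recovered reads it passed (adjusted p = 0.041). Sdhc, the second membrane anchor, had 58.6, 52.8 and 54.8 FPKM with hypoxanthine, against 66.8, 57.0 and 64.5 FPKM in inosine, with a log2 difference of -0.17 (adjusted p = 0.18). For both genes 1 library with hypoxanthine reached above the lowest inosine library. The summed FPKM of the 4 genes was 300.2, 314 and 296 with hypoxanthine, against 362, 402 and 388 in inosine and 377, 380 and 369 in glucose. On this sum the 3 libraries with hypoxanthine lay below the other 6, replicate 2 included.

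Complex III passes electrons through the Rieske iron-sulfur protein Uqcrfs1 and cytochrome c1, the product of Cyc1, to cytochrome c. Both of these nuclear redox subunits fell with hypoxanthine, and so did Uqcrq, a small subunit beside cytochrome b. Uqcrfs1 had 68.3, 70.3 and 70.0 FPKM with hypoxanthine, against 86.3, 86.9 and 92.2 FPKM in inosine. The libraries were far apart for their spread, at a log2 difference of -0.34 (standard error 0.059, adjusted p = 0.004), and the call stood without any 1 library. Cyc1 had 85.9, 68.8 and 70.5 FPKM with hypoxanthine, against 106, 87.3 and 103 FPKM in inosine. Here replicate 1 with hypoxanthine came close to inosine replicate 2, and the test gave a log2 difference of -0.39 (standard error 0.12, adjusted p = 0.043).

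Uqcrq had 62.3, 75.9 and 65.7 FPKM with hypoxanthine, against 84.7, 101 and 82.3 FPKM in inosine, at a log2 difference of -0.39 (standard error 0.10, adjusted p = 0.029). Its media did not overlap, with 75.9 FPKM in the highest library with hypoxanthine against 82.3 in the lowest inosine library. Leaving out 1 library took Cyc1 past the threshold in 6 of 9 fits (adjusted p up to 0.15) and Uqcrq in 3 of 9 (up to 0.10). In the fit of only the 6 libraries compared, these 2 genes had 0.075 and 0.067. Cyc1 was also past it with per-million scaling (0.082, or 0.061 without mitochondrial DNA genes). In limma without trend and robust it had 0.06. The 2 core proteins without redox groups, Uqcrc1 and Uqcrc2, were named after their values were seen, with log2 differences of -0.20 (adjusted p = 0.39) and -0.27 (adjusted p = 0.12). Uqcrc1 had 88.0, 69.6 and 78.9 FPKM with hypoxanthine, against 108, 72.8 and 94.4 FPKM in inosine. Its lowest inosine library was replicate 2, without which the difference was -0.36 (adjusted p = 0.06). Uqcrh, the hinge subunit that meets cytochrome c and the highest member of the complex, had 272, 365 and 281 FPKM with hypoxanthine, against 257, 315 and 257 FPKM in inosine, with overlapping libraries and a log2 difference of 0.14 (adjusted p = 0.51). Uqcr10, another small subunit and the second highest, stood at -0.09 (adjusted p = 0.61). Without inosine replicate 2 these 2 genes stood at 0.24 and 0.02.

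In complex IV 1 of 17 members rose, none fell and 16 did not pass. Over all genes 11.7% were called higher and 9.59% lower, and at 10 FPKM or more 12.7% and 22.3%. Cox7a2l, also known as SCAF1 or COX7RP, is a relative of the Cox7a subunits and is known for joining complex III to complex IV in supercomplexes. It had 129, 144 and 135 FPKM with hypoxanthine, 74.7, 96.7 and 83.7 FPKM in inosine and 83.2, 83.8 and 81.5 FPKM in glucose. All 3 libraries with hypoxanthine were above all 6 others, and the glucose libraries were close together. Against inosine the gene showed a log2 difference of 0.68 (standard error 0.093, adjusted p = 0.0014), and the call held without any 1 library, where the adjusted p was at most 0.0089. Its relatives did not pass the test. Cox7a2, the widely expressed subunit, had 129, 172 and 134 FPKM with hypoxanthine, against 149, 195 and 143 FPKM in inosine, with a log2 difference of -0.16 (adjusted p = 0.48), and Cox7a1, the muscle form, had 0.478, 0.363 and 0.464 FPKM with hypoxanthine, against 0.603, 1.39 and 0.488 FPKM in inosine, at -0.32 (adjusted p = 0.19). Without inosine replicate 2, the highest inosine library of both genes, the differences were -0.03 and -0.11.

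The most abundant subunits of complex IV showed small differences. Cox7c, a small membrane subunit and the highest of the complex, had 324, 433 and 344 FPKM with hypoxanthine, against 345, 429 and 324 FPKM in inosine, with a log2 difference of 0.00 (adjusted p = 1). Cox4i1, the subunit thought to bind ATP and tune the enzyme, had 344, 300.1 and 309 FPKM with hypoxanthine, against 323, 311 and 303 FPKM in inosine, at 0.02 (adjusted p = 0.91). In both genes the ranges of the media overlapped. Cox6b1, which faces cytochrome c, and Ndufa4 stood at -0.07 (adjusted p = 0.67) and -0.23 (adjusted p = 0.22). Cox5b, the zinc-binding subunit, had 273, 272 and 272 FPKM with hypoxanthine, against 291, 369.8 and 288 FPKM in inosine; the media did not overlap, but the test gave -0.21 (adjusted p = 0.18). Without inosine replicate 2, Cox7c stood at 0.12, Cox6b1 at 0.00, Ndufa4 at -0.12 and Cox5b at -0.09, and none of them passed. The median over the complex was -0.07.

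In complex V, 4 of 17 genes fell, or 23.5%. Called lower were 9.59% of all genes and 22.3% of genes at 10 FPKM or more. By part, 2 of 5 genes of the F1 head, 1 of 4 of the outer stalk and 1 of 3 of the c ring fell. None of the 3 genes grouped as small membrane subunits passed. Atp5md and Atp5mpl, counted in none of these parts, did not pass either (adjusted p = 0.50 and 0.40). In the F1 head, Atp5a1 and Atp5b, the alpha and beta subunits that form the catalytic ring, fell, and 3 other subunits did not pass. Atp5b had 592, 540.2 and 566 FPKM with hypoxanthine, against 777, 689.8 and 763 FPKM in inosine. No library overlapped, and the test gave a log2 difference of -0.39 (standard error 0.073, adjusted p = 0.0057), a fall of 23.9% in the most abundant message of the set. Atp5a1 had 292, 271 and 281 FPKM with hypoxanthine, against 348, 332 and 381 FPKM in inosine, at a log2 difference of -0.33 (standard error 0.071, adjusted p = 0.011). Both calls held without any 1 library, with adjusted p values up to 0.027 and 0.046.

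Atp5pb, the b subunit of the stalk that holds the head still, had the largest fall of the members that passed. It had 184, 228 and 192 FPKM with hypoxanthine, 290.0, 343 and 299 FPKM in inosine and 298, 288 and 298 FPKM in glucose. The highest library with hypoxanthine was below the lowest of the 6 others, and against inosine the gene showed a log2 difference of -0.63 (standard error 0.097, adjusted p = 0.0024). Of the 86 members it alone has no recovered reads, so it was not tested on reads here. In the authors' deposited tables Atp5pb was lower with hypoxanthine than with inosine by 0.67 on the log2 scale (adjusted p = 9.5e-07). Against glucose it was lower by 0.57 there (adjusted p = 5.4e-08). The other stalk genes, Atp5h, Atp5j and Atp5o, did not pass, with adjusted p between 0.24 and 0.77. Of the 3 genes whose products are the same c subunit once their targeting sequences are removed, Atp5g1 fell and the others did not pass. Atp5g1 had 120.4, 127 and 119 FPKM with hypoxanthine, against 157, 187 and 155 FPKM in inosine, at a log2 difference of -0.44 (standard error 0.098, adjusted p = 0.013), and its adjusted p was 0.056 without replicate 3 with hypoxanthine. Atp5g2 had 262, 342 and 315 FPKM with hypoxanthine, against 235, 315 and 249 FPKM in inosine, at 0.21 (adjusted p = 0.32), and Atp5g3 had 326, 354 and 343 FPKM with hypoxanthine, against 368, 398 and 344 FPKM in inosine, at -0.12 (adjusted p = 0.37); both overlapped between media, and without inosine replicate 2 they stood at 0.33 and -0.06, again without passing. Atp5g3 and Atp5g2 had the higher levels, means of 375 and 285 FPKM over the 9 libraries, against 153 FPKM for Atp5g1.

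**Figure D4:**
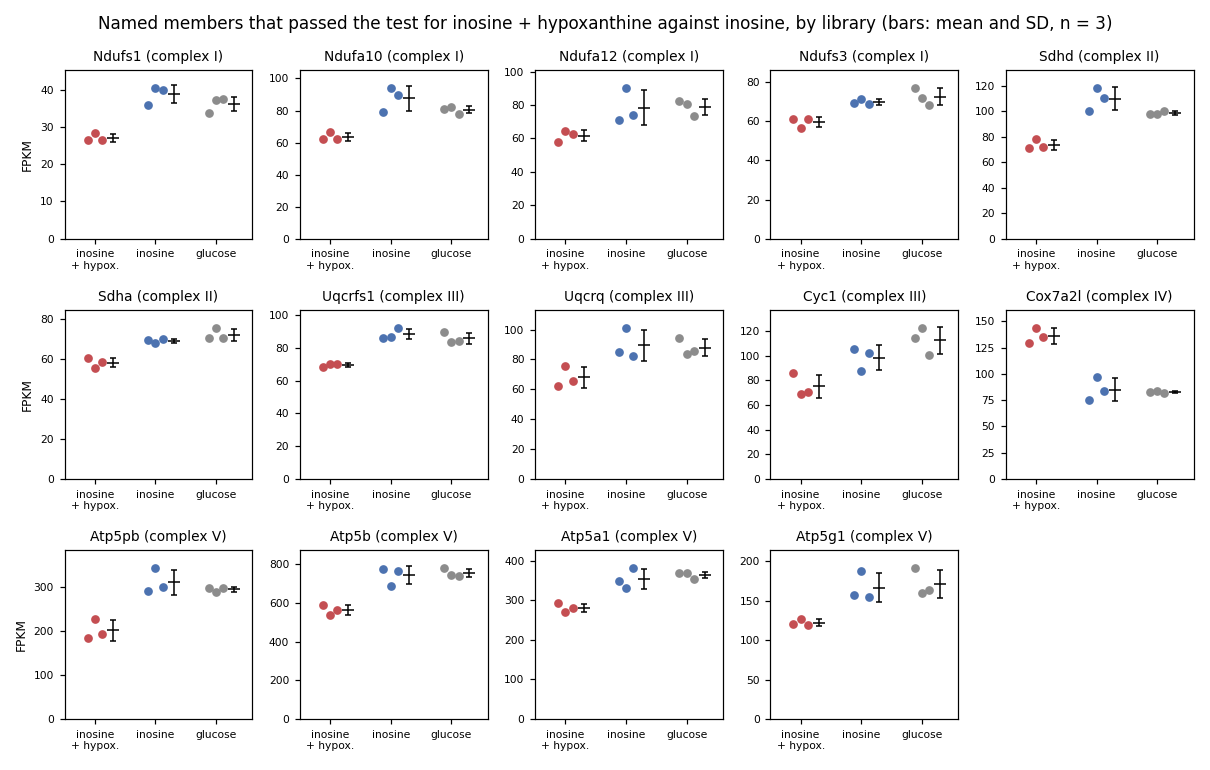
FPKM of each library (axes start at 0) for 14 of the 15 members that passed the test for inosine with hypoxanthine against inosine, with the glucose libraries on the right; the bar beside each group is its mean and SD (n = 3). In 13 panels the red points lie below the blue ones, and in the Cox7a2l panel they lie above, at 129 to 144 FPKM against 74.7 to 96.7 FPKM.

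Exonic length was set beside the calls, as a description with no test. Over the 75 members at 10 FPKM or more with a GENCODE M21 length, the 13 that fell had a median of 2313 exonic bases and the 61 that did not pass had 1495. Across these genes the log2 difference and log10 length had a Pearson correlation of -0.20 and a Spearman correlation of -0.23, given as a description because genes of the same libraries are not independent. The deviation of a library from the other 2 of its medium also went with length, in several libraries and not in the replicate-2 libraries alone. Among members its Pearson correlation with log10 length ran between -0.30, in inosine replicate 2, and 0.37, in inosine replicate 3. Over 4829 genes at 10 FPKM or more it ran between -0.31, in replicate 2 with hypoxanthine, and 0.37, in replicate 3 with hypoxanthine. The part of this in the calls was not tested.

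Proteins that build or feed the complexes are encoded by other genes, whose lists were set by name. The counts of these lists stand beside the shares over all genes, 9.59% lower and 11.7% higher with hypoxanthine against inosine. Genes averaging 1 FPKM or more had 16.0% lower and 16.9% higher. Of 17 genes for complex I assembly, 3 fell with hypoxanthine against inosine and none rose. They were Ndufaf4, an assembly factor (5.64, 6.53 and 5.69 FPKM with hypoxanthine, against 8.28, 10.8 and 8.44 in inosine; -0.54 (adjusted p = 0.0056)), Acad9, an assembly factor related to acyl-CoA dehydrogenases (-0.30 (adjusted p = 0.007)), and Ndufab1, the mitochondrial acyl carrier protein, which is itself part of complex I (-0.31 (adjusted p = 0.021)). In the complex II list 1 of 4 fell, Sdhaf2, which helps insert the flavin of Sdha (-0.23 (adjusted p = 0.034)). In the complex III list 1 of 6 fell, Uqcc1, needed to make cytochrome b in human cells (-0.39 (adjusted p = 0.0074)). In the complex V list 1 of 2 measured genes fell, Atpaf2, a chaperone for the alpha subunit (-0.31 (adjusted p = 0.0095)).

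The complex IV assembly list was larger and mixed, with 6 of 24 lower, 2 higher and 16 that did not pass. Lrpprc, which stabilises mitochondrial messages, had 14.5, 13.7 and 15.0 FPKM with hypoxanthine, against 20.4, 18.6 and 19.7 FPKM in inosine, a log2 difference of -0.42 (adjusted p = 0.0021). Cox10, which makes heme O for the enzyme, stood at -0.53 (adjusted p = 0.0048), and Cox19, which acts in copper delivery, at -0.56 (adjusted p = 0.0065). In all 3 genes every library with hypoxanthine was below every inosine library. The 6 of 24 stand beside the 9.59% of all genes, and the 22.3% of genes at 10 FPKM or more, that were called lower. On recovered reads 2 further assembly genes passed, named after their values were seen: Cox15, which makes heme A, at -0.27 (adjusted p = 0.045), and Lyrm7 of the complex III list, a chaperone of Uqcrfs1, at -0.48 (adjusted p = 0.043).

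Among 19 genes of the mobile electron carriers and the enzymes that feed ubiquinone, 8 fell, 1 rose and 10 did not pass. Over all genes 9.59% were called lower and 11.7% higher, and over genes averaging 1 FPKM or more 16.0% and 16.9%. Coq7, which adds a hydroxyl group late in ubiquinone synthesis, had 9.30, 10.6 and 10.2 FPKM with hypoxanthine, against 16.5, 21.8 and 18.5 FPKM in inosine. The media were far apart, at a log2 difference of -0.85 (standard error 0.10, adjusted p = 0.0007). Dhodh, which passes electrons to ubiquinone while making pyrimidines, had 6.21, 5.51 and 6.59 FPKM with hypoxanthine, against 9.59, 9.12 and 10.1 FPKM in inosine, at -0.58 (adjusted p = 0.0011). Coq8a, a kinase-like regulator of the same synthesis, was the member of this list that rose: it had 1.85, 2.02 and 1.93 FPKM with hypoxanthine, against 0.942, 0.514 and 0.793 FPKM in inosine, at 0.75 (adjusted p = 0.0012), with no library of these media above 2.02 FPKM. The list's median was -0.22. On recovered reads 2 further genes of this list passed, named after their values were seen: Coq2, an enzyme of ubiquinone synthesis, at 0.35 (adjusted p = 0.035), and Coq9, which assists that synthesis, at -0.27 (adjusted p = 0.04).

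Of 18 measured regulators of mitochondrial gene expression, Nrf1 fell (15.5, 13.2 and 15.3 FPKM with hypoxanthine, against 19.3, 17.5 and 19.1 in inosine; -0.33 (adjusted p = 0.02)) and Polg, the mitochondrial DNA polymerase, rose (9.26, 8.81 and 8.79 FPKM, against 6.15, 5.15 and 6.29 in inosine; 0.54 (adjusted p = 0.0024)). The other 16 did not pass on FPKM. On recovered reads Gabpb1, a subunit of GABP named after its values were seen, passed with a log2 difference of 0.25 (adjusted p = 0.035), while in FPKM it stood at -0.12 (adjusted p = 0.86), with the opposite sign. None of the 13 subunits encoded by mitochondrial DNA passed on FPKM; their median log2 difference was -0.17, and 0.04 without inosine replicate 2. The smallest adjusted p was 0.079, for COX2, and on recovered reads COX2 passed at -0.53 (adjusted p = 0.03). COX2 had 1268, 1900.2 and 1425 FPKM with hypoxanthine, against 1819.9, 2835 and 2041 FPKM in inosine. In each of the 13 genes replicate 2 was the highest library both with hypoxanthine and in inosine, and the media overlapped for COX2.

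The second comparison asked what inosine does in place of glucose. None of the 86 members passed with inosine against glucose, where 0.0097% of all genes, 2 in number, passed in limma. At an unadjusted p under 0.05 there were 2 members in limma and 1 in voom on recovered reads, which called none. The median log2 difference of the members was -0.01, with 46 below 0 and 40 above 0, and it was -0.10 without inosine replicate 2, where again none passed. All inosine libraries lay above all glucose libraries for 2 members and below them for 6, as for 2.23% and 2.83% of all genes. Of the 78 members at 10 FPKM or more, 76 had a 95% confidence interval of this difference, unadjusted, inside a log2 change of 0.5 in either direction, and 74 did without inosine replicate 2. None of the assembly, carrier, regulator or mitochondrial DNA lists held a gene that passed. The 13 mitochondrial DNA genes had a median of 0.27, with replicate 2 the highest inosine library, and of 0.08 without that library.

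The 2 members at an unadjusted p under 0.05 were Cox4i1 and Atp5d. Cox4i1 had 323, 311 and 303 FPKM in inosine, against 387, 349.6 and 333 FPKM in glucose. The inosine libraries were all below the glucose libraries, and the log2 difference was -0.19 (adjusted p = 1). Complex II was split: Sdhd did not overlap and was higher in inosine (100.5, 118 and 110.2 FPKM, against 97.4, 97.7 and 100.2 in glucose), while Sdha and Sdhc did not overlap and were lower. None of the 3 passed, with adjusted p at 1.

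Atp5d, the delta subunit of the F1 head, gave different answers in FPKM and in reads. In FPKM it had 137, 96.2 and 106 with hypoxanthine, 122, 103 and 156 in inosine and 254, 238 and 175 in glucose. All 6 libraries with inosine were below all 3 glucose libraries. Inosine against glucose gave a log2 difference of -0.80 (standard error 0.20, adjusted p = 1), and hypoxanthine against glucose gave a log2 difference of -0.97 (standard error 0.20, adjusted p = 0.0092). The recovered reads of the same gene were 11725, 10689 and 8819 with hypoxanthine, 9891, 9892 and 9915 in inosine and 9651, 10124 and 13414 in glucose. Scaled to 1000000 reads of each library (RPM), that was 271, 239 and 254 with hypoxanthine, 280.4, 235 and 267 in inosine and 316, 295 and 270.2 in glucose, and the media now overlapped. On reads, voom gave log2 differences of -0.17 for inosine and -0.21 for hypoxanthine, each against glucose, with adjusted p of 1 and 0.11. In the authors' deposited table the gene was lower with hypoxanthine than with glucose by 0.23 on the log2 scale, with an adjusted p of 0.035.

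**Figure D5:**
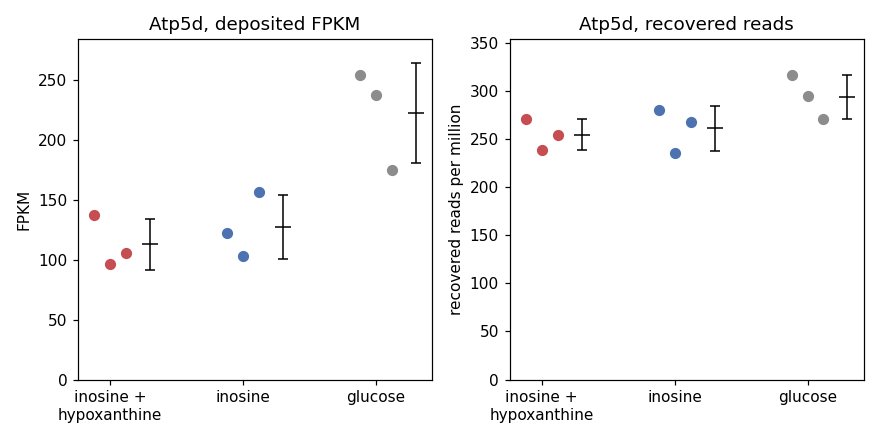
Atp5d in each library as deposited FPKM (left) and as recovered reads per 1000000 (right), both axes from 0, with mean and SD beside each group (n = 3). In FPKM the glucose libraries stand apart at 175 to 254, against 96.2 to 156 in the other 6, while in recovered reads the groups overlap.

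Such a gap was rare among the members. The SD over libraries of the log2 ratio of FPKM to RPM was 0.40 for Atp5d and under 0.05 for 72 of the 78 members with at least 100 reads in each library. Ndufa13, the member with the next largest value, had an SD of 0.14, and Cyc1, of the members that passed, had 0.07. Among 9698 genes compared in the same way, 12.8% had an SD of 0.05 or more. The cause was not tested.

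The third comparison set inosine with hypoxanthine against glucose; it shares 3 libraries with each of the others, so its calls are not independent of them. Here 19 members fell, 1 rose and 66 did not pass, which is 23.3% of the members, where 20.3% of all genes passed, 10.8% higher and 9.55% lower. At 10 FPKM or more, 19 of 78 members fell and 1 rose, where 33% of genes passed, 11.1% higher and 21.9% lower. By complex, 6 of 39 fell in complex I, 3 of 4 in complex II, 3 of 9 in complex III, 1 of 17 in complex IV and 6 of 17 in complex V. The median log2 difference was -0.16, against 0.00 over all genes and -0.08 over genes at 10 FPKM or more. On recovered reads 21 fell and 1 rose, where 35.3% of genes passed. These counts moved with single libraries: 12 fell without glucose replicate 1, 30 without inosine replicate 2, 10 without replicate 3 with hypoxanthine and 37 without the 2 libraries of highest mitochondrial share, while 1 rose each time. In the same fits 15.9%, 23.7%, 13% and 20% of all genes passed, in either direction. Of the 20 calls, 11 stood in all 9 fits that left out 1 library.

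After Atp5d, the largest called differences from glucose were in these genes. Cox7a2l rose, at a log2 difference of 0.71 (standard error 0.093, adjusted p = 0.0012). Cyc1 had 85.9, 68.8 and 70.5 FPKM with hypoxanthine, against 115, 123 and 101 FPKM in glucose, at a log2 difference of -0.58 (standard error 0.12, adjusted p = 0.0084). Atp5pb stood at -0.55 (adjusted p = 0.0046), Atp5g1 at -0.48 (adjusted p = 0.0092), Atp5b at -0.42 (adjusted p = 0.0045), Sdhd at -0.41 (adjusted p = 0.0053) and Ndufs1 at -0.40 (adjusted p = 0.0051). In none of these genes did a library with hypoxanthine reach the glucose range. Ndufb10, an accessory subunit of the membrane arm, had 82.0, 76.2 and 76.8 FPKM with hypoxanthine, against 109, 113 and 95.0 FPKM in glucose. It fell at a log2 difference of -0.42 (standard error 0.098, adjusted p = 0.016), and against inosine it stood at -0.26 (adjusted p = 0.093). Its call against glucose was lost in 4 of 9 fits without 1 library, with adjusted p up to 0.062.

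In complex II, Sdhc also fell against glucose, where it had 58.6, 52.8 and 54.8 FPKM with hypoxanthine, against 69.0, 76.1 and 68.4 FPKM in glucose, a log2 difference of -0.35 (standard error 0.081, adjusted p = 0.015). This call was lost in 3 of 9 fits without 1 library, with adjusted p up to 0.059. Sdha stood at -0.31 (adjusted p = 0.0078), and Sdhb did not pass, at -0.20 (adjusted p = 0.2). In all 4 genes of the complex every library with hypoxanthine lay below every glucose library, as for 17.8% of all genes. Cox6a1, the general form of a small complex IV subunit, was the member of that complex that fell, with 276, 257 and 276 FPKM with hypoxanthine, against 331, 338 and 308 FPKM in glucose, a log2 difference of -0.27 (standard error 0.076, adjusted p = 0.037). Leaving out 1 library took this call past the threshold in 6 of 9 fits, up to an adjusted p of 0.11. In the c ring Atp5g3 fell as well as Atp5g1, at -0.28 (adjusted p = 0.039), and was lost in 6 of 9 such fits, while Atp5g2 stood at 0.11 (adjusted p = 0.61).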

How the data were processed

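RNA of 9 libraries of sorted wild-type CD8+ T cells (1 batch per the labels) was used, 3 per medium. The submitters' processing notes name DESeq2 1.38.3, Subread 2.0.1, featureCounts and HISAT2, and the mm10 build; which tool made the per-library values is not given in the sources used here, and strand is not stated, so overlapping antisense genes cannot be told apart. The per-library values the authors deposited are taken as FPKM. Their headers do not name the unit, but the value per RPM (reads per 1000000), times exonic kilobases, had a median of 1.06 over 9475 genes, where FPKM gives about 1. The tables also hold, as deposited, a mean normalized read signal per medium, log2 fold changes, p-values and adjusted p-values made by the authors. The 2 mean signals of each medium were solved for whole reads (20598 genes, 85 of 86 members, 99.14% of FPKM, within 0.0001 of a whole number, more loosely where a mean had few digits, and then by FPKM ratios where several solutions were left).

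The test was limma 3.58.1 (R 4.3.3, trend and robust) on log2(FPKM + 1), all 20618 genes and 9 libraries in 1 fit, no filter, with calls made below a Benjamini-Hochberg adjusted p of 0.05. All adjusted p values are from limma, apart from those of the authors' deposited tables. Those on reads are from limma voom (13953 genes with at least 10 reads in 3 libraries, library totals). Fold changes on this scale understate the change of low genes, and percentages of rise or fall are ratios of mean FPKM between media. With 3 against 3 libraries an exact permutation test cannot go below 0.1. Members, lists and the rule for named genes were chosen with earlier results of these data known. Named are, per complex, the 2 members of smallest adjusted p for hypoxanthine against inosine, the 2 of highest FPKM and the largest rise; up to 10 called members of the other comparisons; complex II, catalytic subunits, paralogue sets and Atp5d; and up to 3 genes per other list. Other members that passed were named after their values were seen, and 1 gene is not reported by name here. The test was also run on data simulated from the means and spreads of these genes, and that outcome is not reported here. Promoters are from RefSeq GRCm38.p6.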

Additional observations from a re-analysis of the deposited data

How the results depend on the processing

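For hypoxanthine against inosine, 15 members passed and between 8 and 16 did when 1 library was left out, 8 of them without replicate 3 with hypoxanthine; on recovered reads (an alternative added after seeing the data, as were all on reads) 15 passed and between 9 and 21 did. Of the 15 members, 8 passed in all 9 fits that left out 1 library: Ndufs1, Ndufa10, Sdhd, Uqcrfs1, Cox7a2l, Atp5pb, Atp5b and Atp5a1. For hypoxanthine against glucose, 20 passed and between 11 and 31 did without 1 library (on reads 22, and 12 to 29; 13 on FPKM and 12 on reads without glucose replicate 1); 38 passed without the 2 libraries of highest mitochondrial share, 42 on reads. Pseudocounts of 0.1 and 5, a minimum mean of 1 FPKM, median-of-ratios or per-million scaling, per-million scaling without mitochondrial DNA genes, plain limma and the fit of 6 libraries gave 11 to 18 and 21 to 28 members. For inosine against glucose every alternative gave 0. No named member changed sign where it was called.

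The labels do not say that library numbers pair the samples, and same-numbered libraries deviated together for hypoxanthine and inosine with correlations of 0.41, 0.64 and 0.02, for inosine and glucose with 0.40, 0.26 and -0.27 and for hypoxanthine and glucose with 0.08, -0.20 and -0.06, so a replicate block is given here alone. With the replicate block over 9 libraries, 13, 0 and 20 members passed in the 3 comparisons (hypoxanthine against inosine, inosine against glucose, hypoxanthine against glucose); with the block over 6 libraries 20, 0 and 7 did, the last with 6 lower and 1 higher; on reads with the block 15, 0 and 25. The cause was not tested. With 3 libraries per medium, the median SD of the members within a medium was 0.15 with hypoxanthine, 0.18 in inosine and 0.07 in glucose (log2 scale), and the fit pools this spread over the media.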
